A study of Mus musculus with 3 samples.

Results

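The genes described here are the nuclear-encoded subunits of the oxidative phosphorylation complexes, as counted in wells that each received a GFP-positive cone from mouse retina. They were chosen by symbol alone: the symbols that begin Nduf followed by a, b, c, s or v and a digit (complex I), Sdha to Sdhd (complex II), Uqcr (complex III), Cox4 to Cox8 (complex IV) and Atp5 (ATP synthase). The rule found 84 of the 31053 genes in the table, of which 37 belong to complex I, 4 to complex II, 8 to complex III, 18 to complex IV and 17 to ATP synthase. They are set beside the 13 mitochondrially encoded genes, whose symbols begin mt-.

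The study asked how cones migrate in normal and degenerating retina. Pde6c encodes the catalytic part of cone phosphodiesterase and is mutated in Pde6ccpfl1 mice, Cnga3 encodes a channel subunit of the cone light response and is disrupted in Cnga3-/- mice, and the Wildtype line is named Chrnb4-GFP after the reporter that marks cones. All were labelled postnatal day 12, but the well names carry the tags P10 on the Pde6ccpfl1 plate, P08 on the Cnga3-/- plate and P11 on the Wildtype plate, and the meaning of these tags is not given in the sources used here. Each line was sorted into 1 plate, so there was 1 library per genotype, and an effect of genotype cannot be told apart from one of plate or tag. Wells are not replicates of a genotype, no test between genotypes was possible, and no p-value is given. Every interval below is an exact 95% interval that covers counting error only.

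Of 71 Pde6ccpfl1, 76 Cnga3-/- and 61 Wildtype wells, 61, 70 and 52 were kept, since they had 500 or more detected genes and no more than 30% mt- counts. Kept wells held 295011 counts in Pde6ccpfl1, 335499 in Cnga3-/- and 273080 in Wildtype, with a median per well of 3796, 4056.5 and 4895 counts in the same order. Of the targeted genes, Pde6c had 2, 5 and 0 counts and Cnga3 3, 13 and 22 in the same order, and since the altered part of each gene is not given in the sources used here, these counts do not check the labels. The label of the cells was checked against 12 cone marker genes, which summed to 229 counts in Pde6ccpfl1, 267 in Cnga3-/- and 51 in Wildtype. Cngb3 was at 0 in Pde6ccpfl1, none was at 0 in Cnga3-/-, and Opn1sw, Gnat2, Gngt2, Pde6c and Cngb3 were at 0 in Wildtype, so the cone identity of the Wildtype wells had little backing in these counts. The 12 rod markers summed to 220, 295 and 111 counts, and each was detected in every library. No pair of wells had identical counts.

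Wells at the same position of different plates resembled each other, although each plate held another line. Of the kept wells, 61 positions were shared by Pde6ccpfl1 and Cnga3-/-, 43 by Pde6ccpfl1 and Wildtype and 50 by Cnga3-/- and Wildtype. In each of these pairs of plates every shared position of the first plate had its highest correlation, over 4238 genes, with its own position on the second, with median r of 0.58, 0.57 and 0.57 at the same position beside 0.35, 0.34 and 0.33 at other positions. A count of 5 or more of the same gene at the same position of 2 or more plates was found for gene and position pairs that held 54.1% of all counts in Pde6ccpfl1, 54.2% in Cnga3-/- and 49.5% in Wildtype. Of member counts these pairs held 6.37%, 13.8% and 18.3%, and without Uqcrh and Atp5s 2.73%, 5.03% and 9.38%. Apart from Uqcrh and Atp5s, a member with a count in a well had a mean of 1.22, 1.26 and 1.27 counts there. Members could thus seldom reach the 5 counts of a pair, so low shares do not show that members were free of the likeness. Leaving out the pairs keeps any likeness at lower counts. The wells of the libraries are thus not separate measurements at these pairs, the source of the likeness was not tested, and the sums over all members, complex III and the mt- genes are given with and without the pairs. Without them the sums of complexes I, II and IV and of ATP synthase stayed inside their counting intervals.

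Oxidative phosphorylation makes most of the ATP of a respiring cell. Complex I (NADH dehydrogenase) and complex II (succinate dehydrogenase) feed electrons to complex III (cytochrome bc1) and complex IV (cytochrome c oxidase), and ATP synthase uses the proton gradient that complexes I, III and IV build. Complex II is encoded in the nucleus alone, whereas the other complexes combine nuclear subunits with subunits translated from mitochondrial DNA. Photoreceptor inner segments are packed with mitochondria, which supply the ion pumping and phototransduction of these cells.

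Promoters are shown for the member with the most counts (Uqcrh) and for members of ATP synthase (Atp5b) and complex IV (Cox8a) that were higher in both mutant libraries than in Wildtype. The windows run from 250 bases before to 50 after the start of the gene and come from RefSeq on build GRCm38.p6, where 68 of the 84 members had an entry. Capitals mark matches, on either strand, to the letters CCGGAAGT of ETS factors or GGGCGG of SP1. Uqcrh is on the minus strand at chr4:116075021-116075320, Atp5b on the plus strand at chr10:128083057-128083356 and Cox8a on the minus strand at chr19:7217567-7217866.
Uqcrh: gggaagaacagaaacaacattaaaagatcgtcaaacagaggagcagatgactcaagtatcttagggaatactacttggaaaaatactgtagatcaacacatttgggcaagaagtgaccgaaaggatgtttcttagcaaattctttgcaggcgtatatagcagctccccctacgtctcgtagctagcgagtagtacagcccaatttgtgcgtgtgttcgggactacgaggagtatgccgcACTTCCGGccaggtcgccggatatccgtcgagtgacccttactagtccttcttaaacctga
Atp5b: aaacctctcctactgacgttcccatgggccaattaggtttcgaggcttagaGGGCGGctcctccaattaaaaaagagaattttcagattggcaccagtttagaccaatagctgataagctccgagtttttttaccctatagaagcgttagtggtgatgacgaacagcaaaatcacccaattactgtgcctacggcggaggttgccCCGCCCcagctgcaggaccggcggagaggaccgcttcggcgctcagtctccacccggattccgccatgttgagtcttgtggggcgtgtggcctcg
Cox8a: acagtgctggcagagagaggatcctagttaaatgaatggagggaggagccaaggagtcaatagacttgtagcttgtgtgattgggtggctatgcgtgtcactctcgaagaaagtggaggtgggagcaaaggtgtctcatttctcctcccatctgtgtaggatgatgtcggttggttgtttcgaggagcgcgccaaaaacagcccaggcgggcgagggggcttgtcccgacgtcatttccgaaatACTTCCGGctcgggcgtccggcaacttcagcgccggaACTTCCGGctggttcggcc
The Uqcrh window held 1 ETS match, the Atp5b window 2 SP1 matches and the Cox8a window 2 ETS matches. Over all member windows, median GC content was 57.3%, against 52.7% over 27025 promoters of the same length. The letters GCATGCGC of NRF1 (nuclear respiratory factor 1, a known activator of respiratory chain genes) were in 14.7% of member windows and 2.80% of all windows. The letters AAGATGGC of YY1 were in 13.2% of member windows and 2.88% of all windows. The ETS letters were in 7.35% and 4%, the SP1 letters in 41.2% and 35.9%, TATAAA in 10.3% and 14.2%, and TAATCC, the core of the photoreceptor factor CRX, in 8.82% and 7.16% of member and of all windows. Among the 41 windows of members higher than Wildtype in both mutant libraries, 4 held the NRF1 letters, 6 the YY1 letters and 1 the ETS letters. A match describes letters in the window, not a bound site.

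Nuclear subunits as a set were higher in both mutant libraries than in Wildtype, while the mt- genes were level as a sum. This contrast was nearly absent with every well thinned to 1400 counts, as given below with the balance of the genomes. Members summed to 612 counts in Pde6ccpfl1, 644 in Cnga3-/- and 317 in Wildtype. As CPM, the counts scaled to the total of the library, this was 2074 (1913 to 2246), 1920 (1774 to 2074) and 1161 (1037 to 1296) CPM in the same order. The Pde6ccpfl1 sum was 1.79-fold the Wildtype sum (1.56 to 2.05) and the Cnga3-/- sum 1.65-fold (1.44 to 1.90), both against the same Wildtype library. Pde6ccpfl1 over Cnga3-/- was 1.08-fold (0.966 to 1.21), an interval that includes 1. Without the gene and position pairs shared by plates, members had 573, 555 and 259 counts, and the ratio to Wildtype was 2.25 (1.94 to 2.62) in Pde6ccpfl1 and 1.92 (1.66 to 2.24) in Cnga3-/-. Over the 43 positions kept in all 3 libraries it was 2.02 (1.73 to 2.36) and 1.76 (1.505 to 2.06).

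Expression was sparse. Of the 84 members, 75 had a count in Pde6ccpfl1, 75 in Cnga3-/- and 52 in Wildtype, while the share of all genes with a count was 57.1%, 60.4% and 55.4%. Over the 3 libraries together, 38 members had fewer than 10 counts and 4 had none (Ndufa1, Cox7a1, Cox7b2 and Atp5o). A second entry of the last symbol, Atp5o.1, is counted as a member of its own and had 1, 5 and 0 counts. A count was found in all 3 libraries for 48 members, 28 were at 0 in Wildtype with a count in a mutant library, and Cox4i2 alone had its only count in Wildtype. This split sets both mutant libraries against Wildtype alone and so leans to the mutants for sparse genes. The same split was not taken over all genes, so it is not read as a result about the members. Of the 80 members with a count, the CPM of 50 was higher than Wildtype in both mutant libraries, beside 25.9% of 22294 genes, that of 13 was lower in both, beside 37.9% of genes, and 17 differed in direction. These numbers share the Wildtype library, so the mutants are not independent of each other here.

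**Figure D1:**
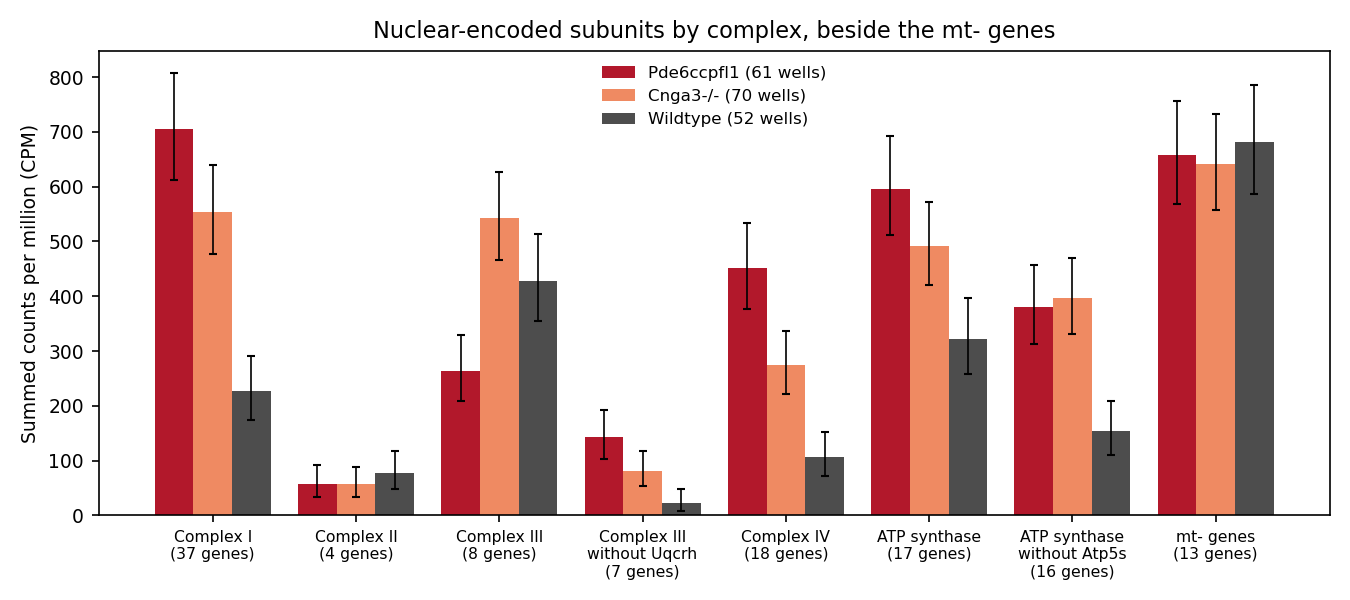
Summed CPM (y axis) of the members of each complex and of the mt- genes in the Pde6ccpfl1, Cnga3-/- and Wildtype libraries, with exact Poisson 95% intervals as error bars. Mutant bars stand above Wildtype for complexes I and IV and for complex III without Uqcrh and ATP synthase without Atp5s, while the bars of complex II and of the mt- genes overlap in their intervals.

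The members were then compared 1 by 1 at a size of 2-fold or more, among members with at least 10 counts over the 2 libraries compared. In Pde6ccpfl1 over Wildtype, 20 of 29 such members were at least 2-fold higher, where 15.5% of 7289 genes were, and 1 (Uqcrh) was at least 2-fold lower, where 17.0% of genes were. In Cnga3-/- over Wildtype, 14 of 25 were higher, where 16.1% of 7739 genes were, and 0 were lower, where 15.1% of genes were. The median log2 ratio of these members was 1.63 in Pde6ccpfl1 over Wildtype and 1.29 in Cnga3-/- over Wildtype, beside -0.11 and -0.13 over all genes with as many counts. A member at 0 in Wildtype reached 10 counts only through the mutant library and so had to lie above Wildtype, and its ratio here is set by a floor of 3 counts. Such members were Uqcrq, Ndufa5, Atp5k, Ndufa2 and Cox7a2 in Pde6ccpfl1 and Atp5k and Ndufb11 in Cnga3-/-. All of them are among the members called higher, so their calls carry no weight of their own. The median of 1.63 in Pde6ccpfl1 over Wildtype was the floored value of Cox7a2. Over the 43 positions kept in all 3 libraries, 10 members were at least 2-fold higher in Pde6ccpfl1 over Wildtype. The number of members tested there and the share of all genes were not taken, so this count cannot be set beside 20 of 29.

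Without that filter, among members with any count, the CPM of 57 of 77 was higher in Pde6ccpfl1 than in Wildtype, beside 45.4% of all genes, and the CPM of 60 of 78 was higher in Cnga3-/- than in Wildtype, beside 48.9%. Between the mutants the difference was smaller. In Pde6ccpfl1 over Cnga3-/-, 11 of 40 members were at least 2-fold higher (10.1% of all genes) and 4 at least 2-fold lower (14.2%), and 44 of 79 with any count were higher in CPM (50.3%). The median log2 ratio of the 40 members was 0.49, beside -0.01 over all genes.

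**Figure D2:**
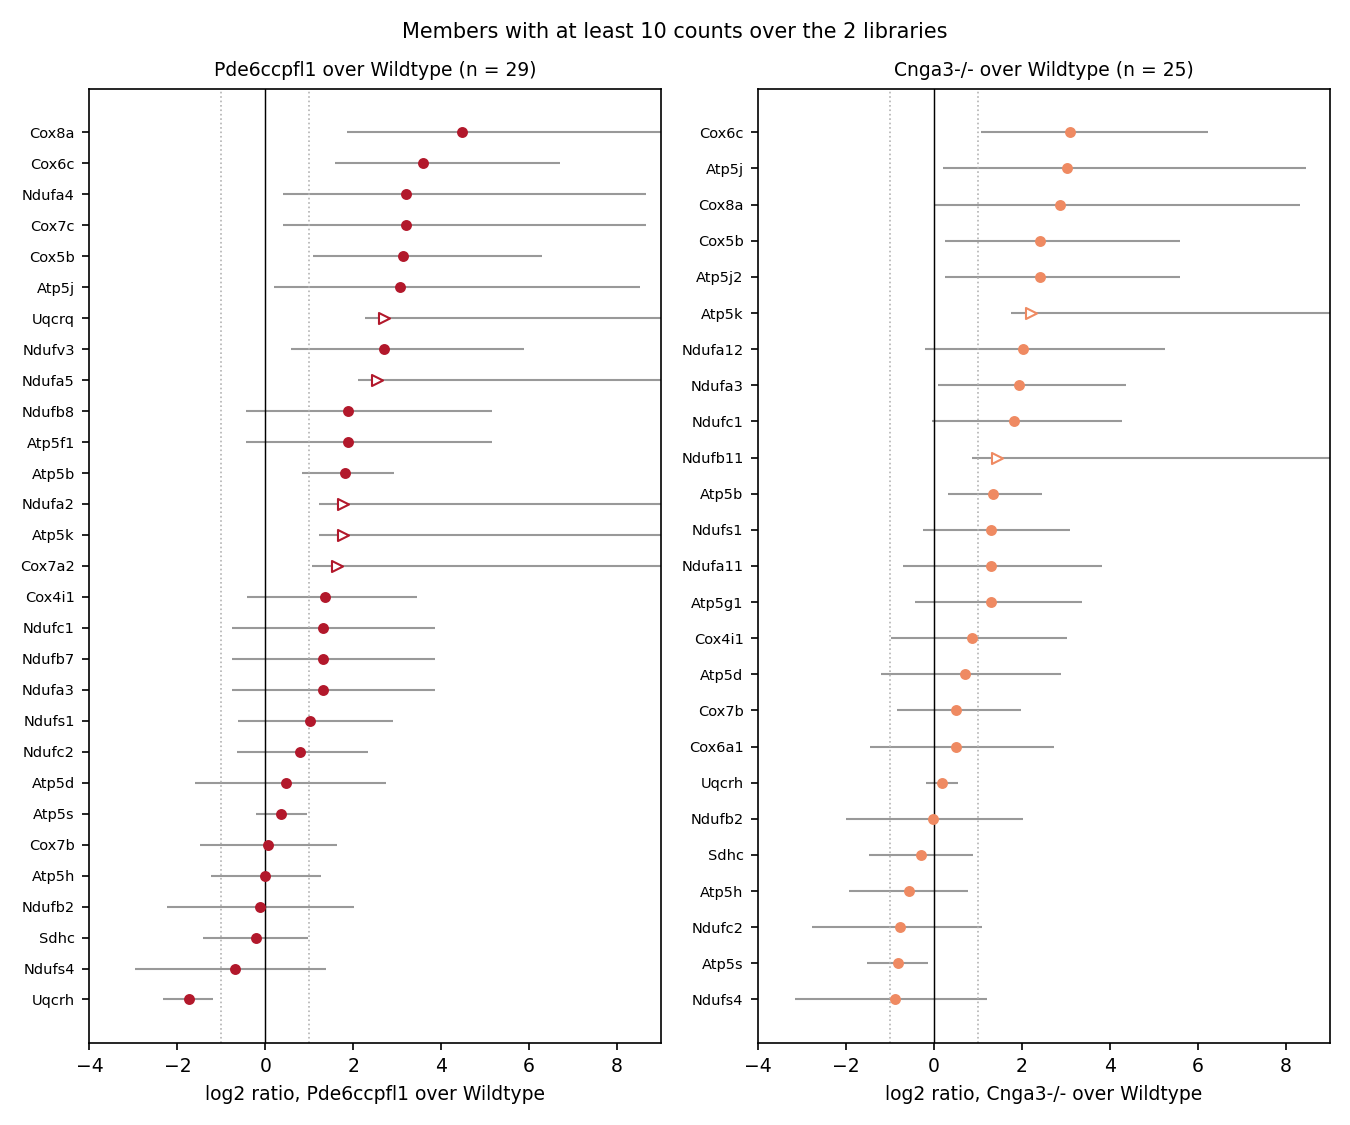
The log2 ratio of CPM (x axis) of each member with at least 10 counts over the 2 libraries, for Pde6ccpfl1 over Wildtype (left) and Cnga3-/- over Wildtype (right), with exact 95% counting intervals as bars. Open triangles are lower bounds of members at 0 in Wildtype, and the dotted lines mark 2-fold; most members lie right of 0 and Uqcrh lies lowest in Pde6ccpfl1 over Wildtype.

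Uqcrh and Atp5s stood apart from the rest in level. Together they held 16.3% of member counts in Pde6ccpfl1, 29.0% in Cnga3-/- and 49.5% in Wildtype. Without them the sums were 512, 457 and 160 counts, or 1736 (1588 to 1893), 1362 (1240 to 1493) and 586 (499 to 684) CPM. The ratio to Wildtype of these 82 members was 2.96 (2.48 to 3.56) in Pde6ccpfl1 and 2.32 (1.94 to 2.80) in Cnga3-/-, and Pde6ccpfl1 was 1.27-fold Cnga3-/- (1.12 to 1.45). Without the shared gene and position pairs these ratios were 3.496 (2.90 to 4.24), 2.69 (2.22 to 3.26) and 1.30 (1.14 to 1.48). The choice to set these members apart was made after their values were seen.

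Complex I, the entry point for electrons from NADH, had 208 counts in Pde6ccpfl1, 186 in Cnga3-/- and 62 in Wildtype. Its level was 705 (612 to 808), 554 (478 to 640) and 227 (174 to 291) CPM, which put both mutants above Wildtype with intervals that did not overlap. Pde6ccpfl1 was 3.11-fold (2.33 to 4.19) and Cnga3-/- 2.44-fold (1.82 to 3.31) the Wildtype level, and Pde6ccpfl1 was 1.27-fold (1.04 to 1.56) the Cnga3-/- level.

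The 7 core subunits of complex I, which carry the flavin and the iron-sulfur clusters, summed to 33, 30 and 13 counts in the same order. They were 2.35-fold (1.20 to 4.86) Wildtype in Pde6ccpfl1 and 1.88-fold (0.951 to 3.92) in Cnga3-/-. Ndufs1, the largest of the core subunits and an iron-sulfur protein of the electron input module, led the complex with 11 counts in Pde6ccpfl1, 15 in Cnga3-/- and 5 in Wildtype, and the interval of its log2 ratio included 0 for Pde6ccpfl1 (1.03, -0.62 to 2.90) and for Cnga3-/- (1.29, -0.25 to 3.10). Ndufs8, another iron-sulfur subunit, had 8, 2 and 0 counts. Ndufs3 was close to level with 3, 3 and 3 counts, and Ndufv1, which binds NADH and the flavin, had 0, 2 and 0.

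The 29 accessory subunits of complex I held most of its difference, with 174 counts in Pde6ccpfl1, 155 in Cnga3-/- and 48 in Wildtype, or ratios to Wildtype of 3.36 (2.43 to 4.72) and 2.63 (1.89 to 3.71). Ndufa5 had 19, 7 and 0 counts, which put Pde6ccpfl1 at 5.86-fold a Wildtype floor of 3 counts (the exact interval of the log2 ratio began at 2.11) and at a log2 ratio of 1.63 (0.31 to 3.12) over Cnga3-/-. Ndufa2 had 11, 8 and 0 counts and Ndufb11 6, 10 and 0, and their counts were spread over 11 and 7 wells and over 6 and 7 wells of the mutant libraries. None of these accessory subunits was seen in any Wildtype well. Ndufv3 differed between the mutants, with 14 counts in Pde6ccpfl1, 3 in Cnga3-/- and 2 in Wildtype, at a log2 ratio of 2.41 (0.57 to 4.85). Ndufb8 had 8, 2 and 2 counts, and the interval of its log2 ratio of Pde6ccpfl1 over Cnga3-/- included 0 (2.19, -0.14 to 5.46). Ndufa12 ran the other way with 4, 10 and 2 counts, at a log2 ratio of -1.14 (-3.26 to 0.66) in Pde6ccpfl1 over Cnga3-/-.

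A few accessory subunits were not higher in both mutants. Ndufs4, needed for the stability of the electron input module, had 4, 4 and 6 counts in Pde6ccpfl1, Cnga3-/- and Wildtype, and Ndufb2 had 5, 6 and 5. Ndufc2 had 13, 5 and 7 counts, at a log2 ratio to Wildtype of 0.78 (-0.65 to 2.35) in Pde6ccpfl1 and -0.78 (-2.78 to 1.09) in Cnga3-/-, where its 5 counts came from 1 well. Ndufa4 is counted under complex I by its symbol but is now assigned to complex IV. It had 10, 6 and 1 counts, with a log2 ratio to Wildtype of 3.21 (0.40 to 8.65) in Pde6ccpfl1 and 2.29 (-0.76 to 7.81) in Cnga3-/-.

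Complex II was not above Wildtype in either mutant. Its 4 genes summed to 17 counts in Pde6ccpfl1, 19 in Cnga3-/- and 21 in Wildtype, or 57.6 (33.6 to 92.3), 56.6 (34.1 to 88.4) and 76.9 (47.6 to 118) CPM. The ratio to Wildtype was 0.749 (0.371 to 1.49) in Pde6ccpfl1 and 0.736 (0.375 to 1.44) in Cnga3-/-, so neither a modest fall nor a modest rise could be told from no difference at this depth. Both upper bounds lay below the ratios of complexes I and IV, a difference for which 1 library per genotype allows no test. Sdhc, a membrane anchor of the complex, held most of the counts with 13, 14 and 14. The well with the most Sdhc in each library held 9, 6 and 5 of these, so the complex II sum rests largely on 1 gene and few wells. The catalytic Sdha and Sdhb had 1, 1 and 2 and had 2, 4 and 5 counts.

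Complex III turned on Uqcrh, the hinge protein of the cytochrome bc1 complex (chr4:116066965-116075071, minus strand, GRCm38). Uqcrh had 36 counts in Pde6ccpfl1, 155 in Cnga3-/- and 111 in Wildtype, which is 122 (85.5 to 169), 462 (392 to 541) and 406 (334 to 490) CPM. Pde6ccpfl1 was thus the low library, at a log2 ratio of -1.74 (-2.32 to -1.18) to Wildtype and -1.92 (-2.49 to -1.39) to Cnga3-/-, while Cnga3-/- over Wildtype was 0.18 (-0.18 to 0.55). A count was found in 37.7% of Pde6ccpfl1 wells, 72.9% of Cnga3-/- wells and 82.7% of Wildtype wells. The size of this difference depends on the setting: in Pde6ccpfl1 over Wildtype the log2 ratio was -0.96 with at most 1 count per well, -2.44 as a mean of CPM over wells and -2.94 on thinned wells, and in Cnga3-/- over Wildtype it ran from -0.37 on thinned wells to 0.58 in wells with at least 1000 genes. The well with the most Uqcrh held 4, 46 and 26 of these counts, and without it 32, 109 and 85 remained. That well was at position B06 on both the Cnga3-/- and the Wildtype plate, and the Pde6ccpfl1 plate has no kept well there. Without positions B06 and B07 in any library Uqcrh had 34, 109 and 84 counts, at a log2 ratio of -1.42 (-2.04 to -0.83) in Pde6ccpfl1 over Wildtype, -1.50 (-2.10 to -0.93) over Cnga3-/- and 0.084 (-0.34 to 0.51) in Cnga3-/- over Wildtype.

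The other 7 genes of complex III were higher in both mutants, with 42 counts in Pde6ccpfl1, 27 in Cnga3-/- and 6 in Wildtype. Their ratio to Wildtype was 6.48 (2.74 to 18.7) in Pde6ccpfl1 and 3.66 (1.48 to 10.8) in Cnga3-/-, on only 6 Wildtype counts. With Uqcrh the complex sum was 78, 182 and 117 counts, and the ratio to Wildtype was 0.617 (0.457 to 0.829) in Pde6ccpfl1. Without the shared gene and position pairs its log2 ratio was -0.20 in Pde6ccpfl1 over Wildtype and -0.62 over Cnga3-/-. Uqcrq, a small subunit that binds the cytochrome b part, had 21 counts in 18 Pde6ccpfl1 wells, 8 in 7 Cnga3-/- wells and 0 in Wildtype. Pde6ccpfl1 was thus 6.48-fold the Wildtype floor of 3 counts (exact interval of the log2 ratio from 2.27). Uqcr10 had 4, 8 and 1 counts. The 3 core genes of the complex, Uqcrc1, Uqcrc2 and the Rieske protein Uqcrfs1, summed to 8, 8 and 4 counts.

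Complex IV had the highest ratios of the complexes in Pde6ccpfl1 when complex III is taken with Uqcrh. Its 18 genes summed to 133 counts in Pde6ccpfl1, 92 in Cnga3-/- and 29 in Wildtype, or 451 (377 to 534), 274 (221 to 336) and 106 (71.1 to 152) CPM. Pde6ccpfl1 was 4.25-fold (2.82 to 6.58) and Cnga3-/- 2.58-fold (1.68 to 4.07) Wildtype, and the order Pde6ccpfl1, Cnga3-/-, Wildtype held with intervals that did not overlap.

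Cox6c, a small membrane subunit, had 26 counts in 21 Pde6ccpfl1 wells, 21 in 16 Cnga3-/- wells and 2 in 2 Wildtype wells. Its log2 ratio to Wildtype was 3.59 (1.59 to 6.71) in Pde6ccpfl1 and 3.10 (1.06 to 6.23) in Cnga3-/-. Cox8a, another membrane subunit (chr19:7215153-7217616, minus strand, GRCm38), had 24, 9 and 1 counts. This was the highest ratio among members with a Wildtype count, at log2 4.47 (1.86 to 9.84) in Pde6ccpfl1 over Wildtype, beside 2.87 (0.02 to 8.33) in Cnga3-/- over Wildtype, and Pde6ccpfl1 was also above Cnga3-/- at 1.60 (0.44 to 2.89). Cox5b, the zinc-binding subunit on the matrix side, had 19, 13 and 2 counts, and its log2 ratio to Wildtype was 3.14 (1.09 to 6.28) in Pde6ccpfl1 and 2.40 (0.26 to 5.59) in Cnga3-/-.

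Among the remaining subunits of complex IV, Cox7a2 had 10, 6 and 0 counts. Cox7c had 10 counts in Pde6ccpfl1, 2 in Cnga3-/- and 1 in Wildtype, at a log2 ratio of 2.51 (0.28 to 5.74) in Pde6ccpfl1 over Cnga3-/-. Cox7b, on the X chromosome, was near level with 9, 14 and 8. Paralogs that are used in other tissues, such as muscle, lung or testis, showed no such difference at this depth: Cox4i2, Cox6a2, Cox6b2, Cox7a1, Cox7b2, Cox8b, Cox8c and Ndufa4l2 together had 3, 6 and 7 counts, with ratios to Wildtype of 0.397 (0.0662 to 1.74) in Pde6ccpfl1 and 0.698 (0.194 to 2.42) in Cnga3-/-. Of these, Cox6a2 had 1, 0 and 3 counts and Cox8b 1, 2 and 1, and no other had more than 2 in a library.

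**Figure D3:**
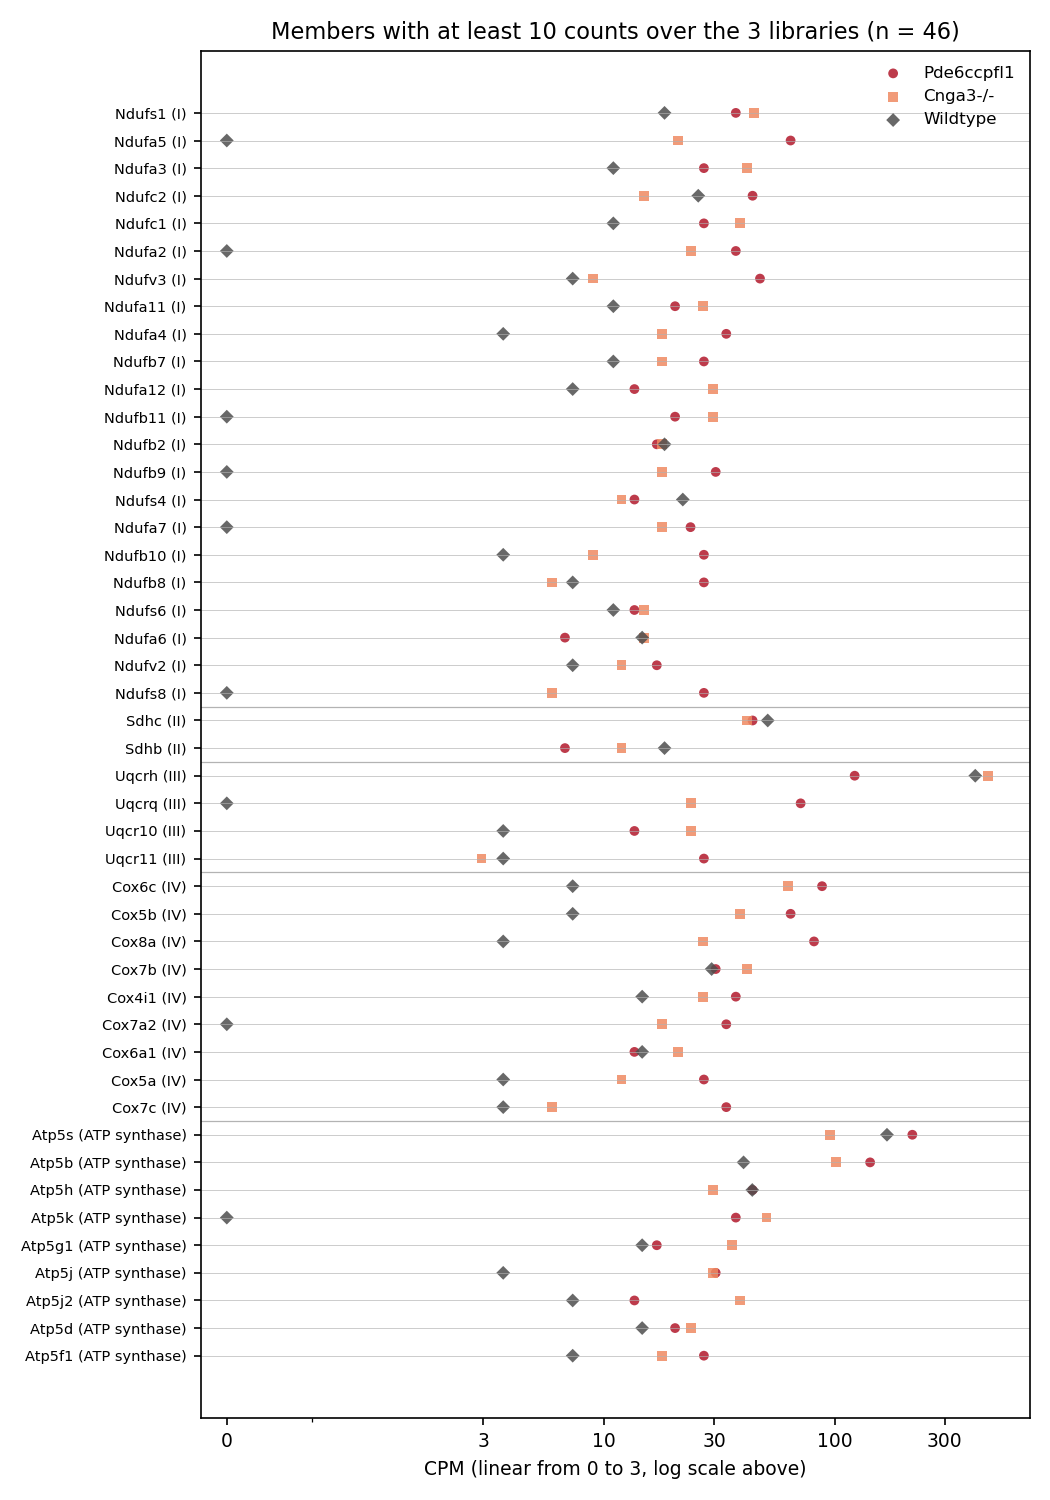
CPM (x axis, linear from 0 to 3 and logarithmic above) of the 46 members with at least 10 counts over the 3 libraries, grouped by complex, in Pde6ccpfl1 (circles), Cnga3-/- (squares) and Wildtype (diamonds). Wildtype diamonds lie left of both mutant symbols in most rows of complexes I and IV. Uqcrh has the highest level in Cnga3-/- and Wildtype, and Atp5s in Pde6ccpfl1.

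ATP synthase, with its 17 genes (Atp5o and Atp5o.1 counted apart), summed to 176 counts in Pde6ccpfl1, 165 in Cnga3-/- and 88 in Wildtype. This is 1.85-fold (1.43 to 2.42) and 1.53-fold (1.17 to 2.00) Wildtype. Atp5s accounts for a large share of these. It is a coupling factor by name and not a subunit of the purified enzyme, and it lies at chr12:69724950-69744660 on the plus strand (GRCm38). It had 64 counts in 26 Pde6ccpfl1 wells, 32 in 12 Cnga3-/- wells and 46 in 22 Wildtype wells, so Cnga3-/- was the low library, at a log2 ratio of -0.82 (-1.52 to -0.14) to Wildtype. A single well held much of it in each library, with 25, 20 and 17 counts, and without it 39, 12 and 29 counts remained. This well was at position B07 on all 3 plates. Without positions B06 and B07 the log2 ratio of Atp5s was 0.32 (-0.41 to 1.06) in Pde6ccpfl1 over Wildtype, -1.56 (-2.67 to -0.55) in Cnga3-/- over Wildtype and 1.88 (0.92 to 2.95) in Pde6ccpfl1 over Cnga3-/-.

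Without Atp5s, the other 16 genes of ATP synthase had 112 counts in Pde6ccpfl1, 133 in Cnga3-/- and 42 in Wildtype. Their ratios to Wildtype were 2.47 (1.72 to 3.61) in Pde6ccpfl1 and 2.58 (1.81 to 3.74) in Cnga3-/-, and Pde6ccpfl1 over Cnga3-/- was 0.958 (0.738 to 1.24). The mutants were therefore level with each other here, within that interval.

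The catalytic F1 head of the enzyme (5 genes) summed to 57, 46 and 20 counts, at 2.64-fold (1.56 to 4.64) Wildtype in Pde6ccpfl1 and 1.87-fold (1.09 to 3.34) in Cnga3-/-, and Pde6ccpfl1 was 1.41-fold (0.939 to 2.13) Cnga3-/-. Most of the F1 counts came from Atp5b, the catalytic beta subunit (chr10:128083273-128090391, plus strand, GRCm38), with 42 counts in 24 Pde6ccpfl1 wells, 34 in 14 Cnga3-/- wells and 11 in 5 Wildtype wells. Its log2 ratio to Wildtype was 1.82 (0.84 to 2.93) in Pde6ccpfl1 and 1.33 (0.32 to 2.46) in Cnga3-/-. The well with the most Atp5b held 4, 12 and 7 of these counts, and without it 38, 22 and 4 remained. Without the gene and position pairs shared by plates, the Atp5b log2 ratio to Wildtype was 3.42 in Pde6ccpfl1 and 2.30 in Cnga3-/-. These 2 values rest on few Wildtype counts and no interval was taken for them. The alpha subunit Atp5a1, which forms the head with it, had 1, 2 and 3 counts.

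The rotating c ring and the small membrane subunits had their highest counts in Cnga3-/-. The c ring genes Atp5g1, Atp5g2 and Atp5g3, which encode the same mature protein, summed to 8 counts in Pde6ccpfl1, 22 in Cnga3-/- and 4 in Wildtype, and Pde6ccpfl1 was 0.414-fold (0.159 to 0.964) Cnga3-/-. The small membrane subunits Atp5j2, Atp5k and Atp5l summed to 16, 34 and 3 counts, or 0.535-fold (0.276 to 0.996) Pde6ccpfl1 over Cnga3-/-. Atp5k had 11, 17 and 0 counts, or 3.39-fold the Wildtype floor of 3 counts in Pde6ccpfl1 and 4.61-fold in Cnga3-/- (exact intervals of the log2 ratio from 1.22 and 1.75), and Atp5j2 had 4, 13 and 2.

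The stalk that joins head and membrane (5 genes, with Atp5o and Atp5o.1 counted apart) summed to 31, 31 and 15 counts, and Pde6ccpfl1 was 1.14-fold (0.669 to 1.93) Cnga3-/-. Atp5j, the coupling factor 6 subunit, had 9, 10 and 1. Atp5h, subunit d of the stalk, had 13, 10 and 12 counts. In Cnga3-/- over Wildtype its log2 ratio came to -0.56 (-1.93 to 0.78), and to 0.46 with at most 1 count per well and 0.85 without the 5 deepest wells of each library.

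The mt- genes, transcribed inside the mitochondrion from its own genome, were level across libraries as a sum. They summed to 194 counts in Pde6ccpfl1, 215 in Cnga3-/- and 186 in Wildtype, or 658 (568 to 757), 641 (558 to 732) and 681 (587 to 786) CPM. The ratio to Wildtype was 0.965 (0.785 to 1.19) in Pde6ccpfl1 and 0.941 (0.770 to 1.15) in Cnga3-/-. These upper bounds lie below the lower bounds of the nuclear members. Without the shared gene and position pairs the ratio was 1.13 (0.920 to 1.40) in Pde6ccpfl1 and 1.01 (0.820 to 1.25) in Cnga3-/-. The mt- sums were not level under every setting: with every well thinned to 1400 counts the log2 ratio to Wildtype was 0.58 in Pde6ccpfl1 and 0.44 in Cnga3-/-. The median mt- level per kept well was 519 CPM in Pde6ccpfl1, 407 in Cnga3-/- and 364 in Wildtype, the same order as the member medians.

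By complex, the mt-encoded subunits of complex I summed to 98, 103 and 92 counts, mt-Cytb of complex III had 15, 28 and 18, the subunits of complex IV summed to 51, 48 and 50 and those of ATP synthase to 30, 36 and 26. The gene with most counts was mt-Nd1 with 50 counts in Pde6ccpfl1, 44 in Cnga3-/- and 46 in Wildtype, and mt-Co1 had 26, 28 and 24. Among the rest, mt-Nd5 had 15, 26 and 16 counts, mt-Co3 23, 14 and 21, mt-Atp6 19, 22 and 13, mt-Nd2 16, 9 and 16 and mt-Atp8 11, 14 and 13. The remaining genes, mt-Nd4, mt-Co2, mt-Nd6, mt-Nd4l and mt-Nd3, had between 1 and 12 counts in each library.

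The balance of the genomes followed. Nuclear over mt- counts came to 3.15 (2.68 to 3.73) in Pde6ccpfl1, 3.00 (2.56 to 3.51) in Cnga3-/- and 1.70 (1.42 to 2.05) in Wildtype. Without Uqcrh and Atp5s it was 2.64 (2.23 to 3.13), 2.13 (1.80 to 2.51) and 0.860 (0.692 to 1.07), so that the mutants had more nuclear than mt- counts and Wildtype had about as many of each. This ratio does not depend on the library total. At equal well depth the contrast was nearly absent for all members. Thinned to 1400 counts per well, members lay above Wildtype by log2 0.67 in Pde6ccpfl1 and 0.49 in Cnga3-/-. The mt- sum lay above it by 0.58 and 0.44. By complex the thinned values parted, with complex I at 1.19 and 0.81 and complex III, Uqcrh included, at -1.14 and -0.19.

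Levels between genes were compared per kilobase of exon, from GENCODE M21 on GRCm38. Beside them stand the olfactory receptor genes, which a retinal cell should lack and which give a level of background counts. These 1133 genes were at 4.17 (4.05 to 4.29) CPM per kb in Pde6ccpfl1, 3.61 (3.51 to 3.72) in Cnga3-/- and 4.51 (4.38 to 4.64) in Wildtype. Members without Uqcrh and Atp5s were at 10.96 (10.0 to 11.9), 8.52 (7.75 to 9.34) and 3.71 (3.15 to 4.33) CPM per kb. In the mutants this sum stood above the olfactory receptor level, and in Wildtype it lay below it. The comparison is of sums and was not made for each member. As a share of all counts, the 1135 olfactory receptor genes of the table held 1.52% in Pde6ccpfl1, 1.32% in Cnga3-/- and 1.65% in Wildtype. All members held 0.207%, 0.192% and 0.116%, and the mt- genes 0.0658%, 0.0641% and 0.0681%. The part of background counts in the member and mt- sums was not tested.

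**Figure D4:**
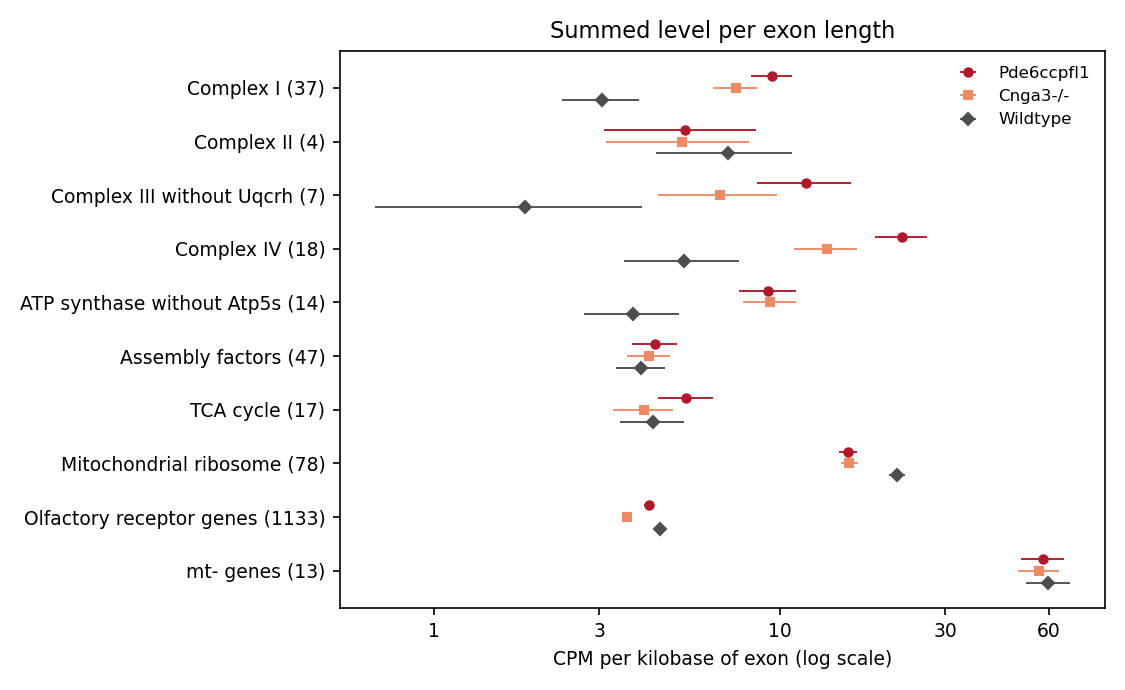
CPM per kilobase of exon (x axis, log scale) with exact Poisson 95% intervals for the complexes, related lists, olfactory receptor genes and mt- genes in Pde6ccpfl1, Cnga3-/- and Wildtype. Complexes I and IV lie right of the olfactory receptor genes in the mutants, and complex I lies left of them in Wildtype.

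By complex, the level per kb was 9.48 in Pde6ccpfl1, 7.45 in Cnga3-/- and 3.05 in Wildtype for complex I, and 22.5, 13.7 and 5.29 for complex IV. Complex II was at 5.31, 5.22 and 7.09 CPM per kb, close to olfactory receptor genes in every library. The mt- genes were at 57.7, 56.2 and 59.7 and so stood above every nuclear complex in each library. Single genes spread widely. Uqcrh was at 98.6, 373 and 329 CPM per kb and Atp5s at 106, 46.8 and 82.6. Cox8a was at 131, 43.3 and 5.92, Atp5b at 33.6, 23.9 and 9.51, Cox5b at 40.6, 24.4 and 4.61, and Cox6c at 24.7, 17.5 and 2.05. In Pde6ccpfl1, Cox8a thus lay above Uqcrh and Atp5s per kb.

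Members have short transcripts, with a median exon length of 1522.5 bp beside 3502 bp over 21721 protein-coding genes. Across 82 members, counts and exon length had a Spearman rho of 0.13 in Pde6ccpfl1, 0.25 in Cnga3-/- and 0.39 in Wildtype, beside 0.56, 0.58 and 0.57 across protein-coding genes. The points share a library and genes are not independent, so this is a description.

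Some members share sequence with other genes. A near-identical copy, at 95% identity or more over at least 100 bases of transcript, was found for 23 members, and the exons of 28 overlap another gene. Whether counting used strand is not given in the sources used here, so reads of overlapping genes may be mixed. Cox6c overlaps Vps13b and has 2 copies, Atp5h has 4, Cox7b 2, Cox5b 1 and Atp5g1 19, and Ndufs1 overlaps Eef1b2 and Ino80dos. Uqcrh, Atp5s, Atp5b, Cox8a and Sdhc have neither. The 39 members with neither had 347 counts in Pde6ccpfl1, 359 in Cnga3-/- and 228 in Wildtype, at 1.41-fold (1.19 to 1.67) and 1.28-fold (1.08 to 1.52) Wildtype. Without Uqcrh and Atp5s, the other 37 had 247 counts in Pde6ccpfl1, 172 in Cnga3-/- and 71 in Wildtype, at 3.22-fold (2.46 to 4.25) and 1.97-fold (1.49 to 2.64) Wildtype.

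Wells differ in depth, so each was thinned to 1400 counts, which left 54 Pde6ccpfl1, 65 Cnga3-/- and 48 Wildtype wells. A count of any member was then found in 98.1% (90.1 to 100) of Pde6ccpfl1 wells, 90.8% (81.0 to 96.5) of Cnga3-/- wells and 81.2% (67.4 to 91.1) of Wildtype wells. Without thinning it was 60 of 61, 68 of 70 and 50 of 52 wells. Without Uqcrh and Atp5s the thinned shares were 96.3% (87.3 to 99.5), 83.1% (71.7 to 91.2) and 60.4% (45.3 to 74.2). A complex I count was found in 55.6%, 52.3% and 31.2% of thinned wells. A complex IV count was found in 27 of 54, 27 of 65 and 8 of 48. The order of libraries was another for complex II, with 3.70%, 7.69% and 10.4%, and for complex III, with 37.0%, 46.2% and 35.4%, and these intervals overlap. An mt- count was found in 57.4% (43.2 to 70.8), 44.6% (32.3 to 57.5) and 43.8% (29.5 to 58.8), intervals that overlap.

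A kept well held a median of 8 member counts in Pde6ccpfl1 (0 to 31), 8 in Cnga3-/- (0 to 48) and 5 in Wildtype (0 to 27), from a median of 7, 6 and 3 members. Without Uqcrh and Atp5s the level per well had a median of 1633 CPM (0 to 8086), 1190 CPM (0 to 4581) and 477 CPM (0 to 2335). The ranges overlap in all 3 libraries, and the medians follow the library sums. Without Uqcrh and Atp5s, a member with a count in a well had a mean of 1.22 counts there in Pde6ccpfl1, 1.26 in Cnga3-/- and 1.27 in Wildtype.

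**Figure D5:**
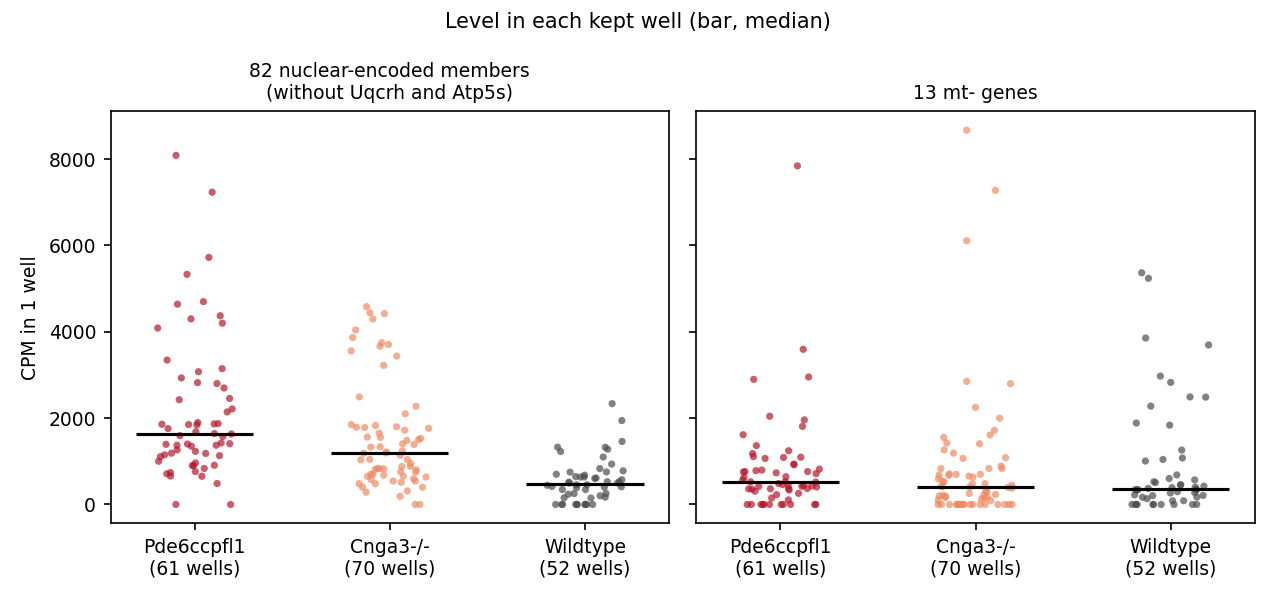
CPM in each kept well (y axis) for 82 members without Uqcrh and Atp5s and for the 13 mt- genes, with 61 Pde6ccpfl1, 70 Cnga3-/- and 52 Wildtype wells as points and medians as bars. Member medians are 1633, 1190 and 477 CPM and mt- medians 519, 407 and 364 CPM. The highest mt- points are at 7843, 8669 and 5367 CPM.

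Cone markers moved with the members. Their sum was 4.16-fold (3.06 to 5.75) Wildtype in Pde6ccpfl1 and 4.26-fold (3.15 to 5.87) in Cnga3-/-, and their part in the result was not tested. A count of a cone marker was found in 57 of 61 Pde6ccpfl1, 60 of 70 Cnga3-/- and 20 of 52 Wildtype wells. In these wells members without Uqcrh and Atp5s were at 1767 (1615 to 1928), 1384 (1255 to 1522) and 553 (434 to 696) CPM. With Uqcrh and Atp5s they were at 2111 (1945 to 2286), 1941 (1788 to 2103) and 970 (809 to 1153) CPM. A count of 1 or more does not match wells for cone content. In the 4, 10 and 32 wells without one they were at 877 (401 to 1664), 1127 (771 to 1592) and 616 (494 to 760) CPM. With Uqcrh and Atp5s, the wells without a cone marker were at 1071 (535 to 1917), 1691 (1247 to 2242) and 1339 (1155 to 1544) CPM, where Pde6ccpfl1 lay below Wildtype on 11 counts. Within Wildtype, all members were thus lower in wells with a cone marker count (970 CPM) than in wells without one (1339 CPM), with intervals that do not overlap, while without Uqcrh and Atp5s the intervals overlap. The Wildtype wells B06 and B07, which held most Uqcrh and most Atp5s, had no cone marker count and 27 and 21 member counts. No mutant well at these positions was among the wells without a cone marker count. The levels without these 2 wells were not taken, so this difference is not read as one of cone content. Wells without a cone marker count were also shallower, with medians of 2521, 2715.5 and 4231 counts beside 3939, 4305 and 6228.5. Rod markers were 1.83-fold (1.45 to 2.33) Wildtype in Pde6ccpfl1 and 2.16-fold (1.73 to 2.72) in Cnga3-/-, and their part was not tested either. Markers of other cells moved as well. Those of Muller glia (7 genes) had 25, 34 and 45 counts, at 0.514-fold (0.302 to 0.857) Wildtype in Pde6ccpfl1 and 0.615-fold (0.382 to 0.982) in Cnga3-/-, with Aqp4 at 0 in Pde6ccpfl1 and Wildtype. Those of horizontal cells (6) had 107, 101 and 115, at 0.861-fold (0.656 to 1.13) and 0.715-fold (0.542 to 0.942). Those of the pigment epithelium (5) had 14, 10 and 4, at 3.24-fold (1.02 to 13.5) and 2.03-fold (0.587 to 8.89), with Lrat and Ttr at 0 in Wildtype and Ttr at 0 in Cnga3-/-. For bipolar, amacrine, ganglion, microglial, vascular and astrocyte markers the intervals of both ratios included 1, and hemoglobin genes had 0, 2 and 0 counts. The part of these cells in the result was not tested.

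Other genes of the pathway were taken from lists chosen with earlier results of these data known. Assembly factors of the complexes (47 genes) summed to 180 counts in Pde6ccpfl1, 196 in Cnga3-/- and 152 in Wildtype, at 1.10-fold (0.878 to 1.37) and 1.05-fold (0.845 to 1.31) Wildtype. At 10 counts or more, 3 of 11 were at least 2-fold higher and 3 lower in Pde6ccpfl1, and 2 of 11 were higher and 1 lower in Cnga3-/-. Of all genes with as many counts, 15.5% were higher and 17.0% lower in Pde6ccpfl1, and 16.1% higher and 15.1% lower in Cnga3-/-. These shares stand beside the counts of each list below. Coa5, a cytochrome c oxidase assembly factor, stood out with 38, 29 and 3 counts, at a log2 ratio to Wildtype of 3.55 (1.90 to 5.89) and 2.98 (1.29 to 5.33). The well with the most Coa5 in each library held 17, 14 and 1 of these counts. Uqcc1, an assembly factor of complex III, had 31, 23 and 18. Carriers and subunits under other symbols (6 genes, Cycs and Cyc1 among them) summed to 24, 23 and 15 counts, of which Usmg5, a small ATP synthase subunit, had 19, 14 and 7 and the ATP synthase inhibitor Atpif1 had 4, 5 and 4.

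Genes that maintain and express mitochondrial DNA (14) summed to 61, 100 and 92 counts, at 0.614-fold (0.437 to 0.858) Wildtype in Pde6ccpfl1 and 0.885-fold (0.660 to 1.19) in Cnga3-/-. The helicase Twnk had 8, 26 and 25 counts, of which the top well of each library held 6, 15 and 16, and the polymerase Polg had 12, 10 and 18. At 10 counts or more, 0 of 5 were at least 2-fold higher and 1 lower in Pde6ccpfl1, and 1 of 6 was higher and 2 lower in Cnga3-/-. The mitochondrial ribosome (78 genes), which translates the mt- transcripts, summed to 1135, 1303 and 1456 counts, at 0.722-fold (0.667 to 0.780) and 0.728-fold (0.675 to 0.785) Wildtype. Mrpl12 alone held 512, 450 and 772 of these and Mrps11 190, 200 and 261, while 5 of 25 genes were at least 2-fold higher and 2 lower in Pde6ccpfl1, and 3 of 24 were higher and 1 lower in Cnga3-/-. The median log2 ratio to Wildtype of the tested genes was -0.25 in Pde6ccpfl1 and -0.005 in Cnga3-/-, beside -0.11 and -0.13 over all genes. The sum without Mrpl12 and Mrps11 was not taken, so its low ratios are not read as a fall of the list.

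Regulators of mitochondrial genes (10) summed to 153, 225 and 137 counts, at 1.03-fold (0.816 to 1.31) Wildtype in Pde6ccpfl1 and 1.34-fold (1.08 to 1.67) in Cnga3-/-. Gabpb1, a partner of the ETS factor GABPA, had 54, 77 and 23 counts, of which the top well of each library held 27, 35 and 3. Nrf1 had 28, 54 and 34 counts, of which the top well held 13, 37 and 19. Single wells thus made up much of these regulator sums. In each mutant 2 of 6 tested regulators were at least 2-fold higher, and 1 was lower in Pde6ccpfl1 and 0 in Cnga3-/-. Enzymes of the TCA cycle (17) summed to 119, 102 and 88 counts, at 1.25-fold (0.942 to 1.67) and 0.943-fold (0.702 to 1.27) Wildtype. Mdh2, malate dehydrogenase, had 43, 26 and 33 and Dlst 15, 11 and 8, and of 7 tested, 1 was higher and 1 lower in Pde6ccpfl1 and 2 were higher and 2 lower in Cnga3-/-. Glycolysis (19) summed to 241, 209 and 149 counts, at 1.497-fold (1.22 to 1.85) and 1.14-fold (0.921 to 1.42) Wildtype, with 6 of 14 at least 2-fold higher and 1 lower in Pde6ccpfl1 and 6 of 15 higher and 2 lower in Cnga3-/-. Gpi1 had 38, 28 and 27 counts and Hk1 33, 23 and 29. The tested glycolysis genes had a median log2 ratio to Wildtype of 0.83 in Pde6ccpfl1 and 0.70 in Cnga3-/-, beside -0.11 and -0.13 over all genes. Gene by gene, glycolysis thus also lay above the level of all genes. As sums, the lists beside the members had lower ratios to Wildtype than complexes I and IV, which was not tested.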

How the data were processed

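GFP-positive cones were sorted with a viability dye from papain-dissociated retina into 1 plate of 96 wells per line, and libraries followed a modified form of the SMARTseq2 and MARS-seq methods, per the labels' protocols. The authors deposited raw counts per gene and well. The counting tool was featureCounts, with no version, and the build GRCh38, per the submitters' processing notes. That build is human and the symbols are mouse, so coordinates here are from GRCm38. Which build the authors counted on is not known. The aligner and the handling of molecular identifiers are not given in the sources used here, so counts may be repeated copies of a molecule.

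Every column was matched to a library by its name. Wells with under 500 genes were left out (10 Pde6ccpfl1, 6 Cnga3-/- and 9 Wildtype), and none exceeded 30% mt- counts. Doublets were not called, because the sort was meant to place 1 cell in a well. Counts of kept wells were summed per library and scaled to CPM, with exact Poisson intervals, ratios with exact conditional intervals and shares with exact Clopper-Pearson intervals, all at 95%. A library at 0 was set to a floor of 3 counts when the other had more, and no ratio was given where both had 3 or fewer. Exon lengths came from GENCODE M21, where 82 of 84 members matched. Python 3.11.15 with numpy 2.4.6, pandas 2.3.3 and scipy 1.17.1 was used, and TMM factors came from edgeR 4.0.16. The ratio script was tested on simulated data.

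The members and lists were chosen with earlier results of these data known. Named members had at least 30 counts over the 3 libraries, or were among the 5 highest or 5 lowest in a comparison at 10 counts or more, or led a complex, and 8 tissue-restricted paralogs, the mt- genes and the 2 members with most counts of each related list were added. Others were named after their values were seen: those at 0 in Wildtype, the core genes of complexes I to III and ATP synthase, and members with no count. A result withheld for evaluation is not reported here.

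The alternatives were other filters on wells and counts, other scalings, at most 1 count per gene and well, thinning, the mean of CPM over wells, and leaving out deep wells, the leading members, symbols that are not subunits, well positions B06 and B07, positions not kept in all 3 libraries, or gene and position pairs shared by plates.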

Additional observations from a re-analysis of the deposited data

Results flagged for a closer look

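Wells left out for having under 500 genes still held member counts. In the 10 left-out Pde6ccpfl1 wells, 40 of 8245 counts were members, or 4851 CPM (3466 to 6606). In the 6 left-out Cnga3-/- wells, 26 of 4749 counts were members, or 5475 CPM (3576 to 8022). In the 9 left-out Wildtype wells, 7 of 7174 counts were members, or 976 CPM (392 to 2010). The mt- genes in these wells were at 3517, 3580 and 418 CPM in Pde6ccpfl1, Cnga3-/- and Wildtype. These wells enter no comparison of the report, and in the mutant libraries their member level was above that of the kept wells.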

How the results depend on the processing

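No paired analysis was possible because each genotype has 1 library and no replicates. The list sum had log2 ratios of 0.84 (Pde6ccpfl1 over Wildtype), 0.73 (Cnga3-/- over Wildtype) and 0.11 (Pde6ccpfl1 over Cnga3-/-). With at most 1 count per gene and well they were 1.23, 0.94 and 0.29, and without Uqcrh and Atp5s 1.57, 1.22 and 0.35. In wells with no cone marker count, an alternative chosen after seeing the data, they were -0.32, 0.34 and -0.66, the first on 11 Pde6ccpfl1 counts, and the cause was not tested. The Wildtype wells B06 and B07, with 27 and 21 member counts, were in this setting, while no mutant well at these positions was. Without gene and position pairs with 5 counts or more in 2 or more libraries, also chosen after seeing the data, the log2 ratios of the list sum were 1.17, 0.94 and 0.23. Thinning gave 0.49 for Cnga3-/- over Wildtype. Members at least 2-fold higher (20, 14 and 11 in that order) were 2, 2 and 4 on thinned wells, which hold fewer counts. With at least 50 counts and a count in 20% of wells they were 1 of 3, 0 of 2 and 1 of 3 members tested (10.2%, 11.2% and 6.44% of all genes). With no filter they were 31 of 77, 25 of 78 and 18 of 79 (19.4%, 19.5% and 20.6%). In Pde6ccpfl1 over Wildtype they were 10 over the positions kept in all 3 libraries (chosen after seeing the data). Under a stricter filter that kept 42, 54 and 41 wells they were 13 in that comparison. For thinned wells, these positions and the stricter filter, neither the number tested nor the share of all genes was taken.

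A value was taken to hold where it stayed inside the 95% counting interval of the value as reported, which is wide for low counts. Over complex sums, 181 values did so, 7 of them with the opposite sign, 17 lay outside, and 3 took the opposite sign of a value whose interval excludes 0. Complex III was 0.25 in Pde6ccpfl1 over Wildtype with at most 1 count per gene and well, and without Uqcrh to 2.70 there and 0.82 in Pde6ccpfl1 over Cnga3-/-, with 1.87 in Cnga3-/- over Wildtype (leaving out leading members of complexes was chosen after seeing the data). Over the positions kept in all 3 libraries complex III was -0.25 in Pde6ccpfl1 over Wildtype and -0.45 over Cnga3-/-, and without the shared pairs -0.20 and -0.62. It was also 0.69 (stricter wells) and -0.19 (thinned) in Cnga3-/- over Wildtype, -1.14 (thinned) in Pde6ccpfl1 over Wildtype and -0.14 (at most 1 count) in Pde6ccpfl1 over Cnga3-/-. Thinned, complex I was 1.19 in Pde6ccpfl1 and 0.81 in Cnga3-/- over Wildtype, complex II -1.75 in Pde6ccpfl1 over Wildtype and -1.05 over Cnga3-/-, and ATP synthase 1.36 in Pde6ccpfl1 over Wildtype. Without Atp5s, ATP synthase was 1.30, 1.37 and -0.062. The mt- sum was 0.58 and 0.44 over Wildtype when thinned, and 1.65 (Cnga3-/- over Wildtype) and -1.86 (Pde6ccpfl1 over Cnga3-/-) in wells with no cone marker, where 1 Cnga3-/- well held 34 of 50 mt- counts. The unthinned share of wells with a member was 97.1% in Cnga3-/- and 96.2% in Wildtype. Named members had 816 values inside the interval, 37 of them with the opposite sign, and 22 outside. Other scalings kept every list sum and complex sum inside its interval; median-of-ratios factors set the median of all genes at -0.02 and 0.01 for Pde6ccpfl1 and Cnga3-/- over Wildtype, beside -0.11 and -0.13.

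The depth limits single members: 38 of 84 had fewer than 10 counts.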
